A study of Mus musculus with 18 samples.

Results

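The genes described here are 10 markers of blood vessel endothelium, namely Kdr, Flt1, Tek, Tie1, Cdh5, Pecam1, Emcn, Eng, Egfl7 and Sox18, followed by chromatin immunoprecipitation sequencing (ChIP-seq) in the mouse heart. Their members are the union peaks, that is, the merged binding regions of all libraries, that carry one of these gene symbols, plus the peaks without a gene that lie inside the interval of one of the genes. This gave 85 of the 101256 union peaks, of which 40 carried a symbol and 45 lay without a gene inside a member gene. A total of 9 of the 10 genes had at least 1 peak, and Pecam1 was not analysed here. Sox18 had 8 annotated peaks, Cdh5 and Egfl7 had 6 each, Kdr and Eng 5 each, Flt1 and Tek 3 each, and Emcn and Tie1 2 each, while Flt1, the longest of these genes, accounted for 26 of the 45 peaks without a gene.

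The study examined heart ventricles of 3 genotypes with antibodies against RNA polymerase II (Pol II), the chromatin architecture protein CTCF, and non-specific IgG as the background control. WT hearts were compared with Trdn-as KO hearts, in which a polyA site in the first exon ends transcription of the antisense RNA Trdn-as, and with Mettl3 KO hearts (Mettl3lox/lox:alphaMHC-MerCreMerpos), in which tamoxifen-activated Cre under the alphaMHC promoter deletes the RNA methyltransferase Mettl3 in cardiomyocytes. Each genotype had 2 Pol II, 2 CTCF and 1 IgG library, making 15 libraries of the 18 samples, while the 3 input samples were not used here. Chromatin was prepared from the ventricles of 2 adult hearts, the exact age of these hearts and the Cre, lox and tamoxifen state of the WT hearts are not given in the sources used here, and the Trdn-as insertion is carried by all cells whereas Mettl3 is deleted in cardiomyocytes only. The sources do not state that the 2 libraries of a genotype came from separate hearts, so that p-values measure only the spread between these libraries, which may be technical.

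Endothelial cells line all blood vessels and, in the heart, form the dense capillary bed around the cardiomyocytes. Their identity rests on receptors for vascular growth factors and angiopoietins, on adhesion proteins that seal cell junctions, and on transcription factors of the ETS and SOX families. Pol II at a promoter marks genes that are engaged by the transcription machinery, and CTCF binds insulator and loop anchor sites.

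Values are read counts per union peak after division by a size factor, as deposited, and are called normalised read counts below. The Pol II libraries held between 1987570 and 4953510 reads in peaks, the CTCF libraries between 6789530 and 10163785, and the IgG libraries between 273445 and 813045. Trdn-as KO replicate 2 stood apart among the Pol II libraries, with 18.61% of its mapped reads in peaks against up to 42.56% in the others, and the calls of gene sums in Trdn-as KO are given with and without it. Peaks on the Y chromosome summed to 0 in all 5 libraries of Trdn-as KO, against 223 to 326 in the Pol II libraries of the other genotypes. Trdn-as KO and the sex of the hearts cannot be told apart in either comparison with it. At Mettl3, whose deletion is confined to cardiomyocytes and need not touch the peaks counted, so that they check no label, the Pol II sum was 177 and 202 (WT), 203 and 161 (Trdn-as KO) and 240 and 235 (Mettl3 KO). At Trdn, the host of Trdn-as, it was 160 and 207, 204 and 161, and 228 and 192, respectively, and Trdn-as itself was not analysed here.

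The sequences before the starts of 4 members whose Pol II values are described below are shown. These members are the VEGF receptor genes Kdr and Flt1, the angiopoietin receptor gene Tek, and Egfl7. Tek had its highest mean in Mettl3 KO, and Egfl7 had a lower Pol II sum in Mettl3 KO. No relation between these sequences and Pol II was tested. Each sequence is the 250 bases 5′ of a RefSeq start, in build GRCm38.p6, while the peaks are in GRCm39. The 3 Egfl7 windows belong to its 3 RefSeq starts. Capitals mark matches to a short ETS motif with the letters AGGAAG, to the TATA box letters TATAAA, and to the GC box letters GGGCGG, with matches on the opposite strand shown as the reverse complement.
Kdr, chr5:75978456-75978705, minus strand: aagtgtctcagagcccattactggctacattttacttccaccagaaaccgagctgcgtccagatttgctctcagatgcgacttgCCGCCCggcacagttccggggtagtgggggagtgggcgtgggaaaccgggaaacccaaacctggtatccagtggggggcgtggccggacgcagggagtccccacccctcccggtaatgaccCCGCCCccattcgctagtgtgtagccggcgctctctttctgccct
Flt1, chr5:147726012-147726261, minus strand: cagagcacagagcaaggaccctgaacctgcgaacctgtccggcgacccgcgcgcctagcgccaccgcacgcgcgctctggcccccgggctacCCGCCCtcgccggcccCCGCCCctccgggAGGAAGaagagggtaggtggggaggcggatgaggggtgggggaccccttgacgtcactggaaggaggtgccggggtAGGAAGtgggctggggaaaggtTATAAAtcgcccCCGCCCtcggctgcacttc
Tek, chr4:94739039-94739288, plus strand: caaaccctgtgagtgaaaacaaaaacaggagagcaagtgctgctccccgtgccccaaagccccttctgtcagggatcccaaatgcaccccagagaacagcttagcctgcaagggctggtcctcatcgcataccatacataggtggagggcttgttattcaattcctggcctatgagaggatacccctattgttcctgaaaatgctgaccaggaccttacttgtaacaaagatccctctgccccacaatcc
Egfl7 start 1, chr2:26580833-26581082, plus strand: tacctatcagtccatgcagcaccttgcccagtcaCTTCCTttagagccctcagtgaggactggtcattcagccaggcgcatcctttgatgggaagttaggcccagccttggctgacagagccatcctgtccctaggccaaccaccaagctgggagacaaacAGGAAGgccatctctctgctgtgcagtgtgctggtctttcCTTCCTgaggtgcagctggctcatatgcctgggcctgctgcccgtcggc
Egfl7 start 2, chr2:26583615-26583864, plus strand: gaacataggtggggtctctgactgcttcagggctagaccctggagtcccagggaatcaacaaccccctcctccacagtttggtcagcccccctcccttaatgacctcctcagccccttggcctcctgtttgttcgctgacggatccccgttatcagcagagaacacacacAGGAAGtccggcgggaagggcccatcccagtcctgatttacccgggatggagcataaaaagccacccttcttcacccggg
Egfl7 start 3, chr2:26586386-26586635, plus strand: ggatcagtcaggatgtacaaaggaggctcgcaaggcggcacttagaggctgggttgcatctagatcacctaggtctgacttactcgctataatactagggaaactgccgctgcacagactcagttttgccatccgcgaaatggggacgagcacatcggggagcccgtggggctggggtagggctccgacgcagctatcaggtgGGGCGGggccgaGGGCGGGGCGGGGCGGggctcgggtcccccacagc
Sequence windows were found for 7 members, with 9 windows in all, and each motif was searched over the whole window of 250 bases before and 50 after the start. AGGAAG occurred in 6 of the 9 windows, from Egfl7, Emcn, Eng, Flt1 and Tie1, and in 35.35% of all 32851 RefSeq windows. GGGCGG occurred in 3 of the 9, from Egfl7, Flt1 and Kdr, against 35.66% of all windows. TATAAA was present in the Flt1 window only among the 9 and in 13.62% of all windows. The longer ETS core CCGGAAG, which contains none of the other motifs, was in none of the 9 and in 8.858% of all, and the Tek window held none of the 4. The GC content of the 250 bases was 70.4% for Flt1 and 61.6% for Kdr, compared with 51.2% for Tek and a median of 52.4% over all windows.

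Egfl7 encodes a secreted endothelial protein, and its gene also hosts miR-126, the endothelial microRNA. The mature form is shown because its host is the member with a Pol II difference, with the seed, bases 2 to 8, in capitals.
mmu-miR-126a-3p, chr2:26591402-26591423, plus strand, GRCm38.p6: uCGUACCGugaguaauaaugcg

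Every one of the 9 members had a Pol II peak at or near its start. At Kdr, which encodes the main signalling receptor for VEGF (VEGFR2), the promoter peak (chr5:76137715-76140225 in GRCm39, minus strand, centred 148 bases inside the gene) had normalised Pol II read counts of 362 and 361 (WT), 474 and 318 (Trdn-as KO) and 381 and 387 (Mettl3 KO). At Flt1, which encodes VEGFR1, a receptor that also acts as a decoy for VEGF, the promoter peak (chr5:147661821-147663819, minus strand) had 350 and 397, 380 and 419, and 368 and 323 in the same order. At Flt1 both knockouts overlapped WT, with Trdn-as KO above Mettl3 KO, whereas at Kdr both Mettl3 KO libraries were above both WT libraries by a small margin and the Trdn-as KO libraries lay on either side of all others.

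At Tek, which encodes the angiopoietin receptor TIE2, the promoter peak (chr4:94626956-94628296, plus strand) had 108 and 147 (WT), 181 and 118 (Trdn-as KO) and 186 and 170 (Mettl3 KO). At Tie1, the related receptor without a well-defined ligand of its own, the peak (chr4:118346589-118347586, minus strand) had 173 and 183, 176 and 124, and 171 and 155. Tek was thus higher in both Mettl3 KO libraries than in both WT libraries, whereas at Tie1 both Mettl3 KO libraries were just below WT.

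The junction and surface genes gave a similar picture of small differences. At Cdh5, which encodes VE-cadherin, the adhesion protein of endothelial junctions, the promoter peak (chr8:104827792-104828897, plus strand) had 166 and 202 (WT), 187 and 153 (Trdn-as KO) and 157 and 189 (Mettl3 KO). At Emcn, which encodes the sialoglycoprotein endomucin of capillaries and veins, the narrow promoter peak (chr3:137046652-137047169, plus strand) had 64 and 82, 63 and 43, and 62 and 50. All 4 knockout libraries were below both WT libraries, by as little as 63 against 64 (limma adjusted p = 0.772 for Trdn-as KO and 0.565 for Mettl3 KO against WT). At Eng, which encodes endoglin, a co-receptor for TGF-beta and BMP ligands, the peak (chr2:32535941-32538345, plus strand) had 308 and 332, 433 and 283, and 346 and 359, with Mettl3 KO above WT and Trdn-as KO on either side.

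At Egfl7 the strongest annotated peak lay 1552 bases upstream of the gene start given in the table (chr2:26467285-26469664, plus strand), with 373 and 381 (WT), 335 and 273 (Trdn-as KO) and 310 and 264 (Mettl3 KO). It is called the promoter peak of Egfl7 by its Pol II alone, and whether it holds a RefSeq start was not tested. A wide peak that carries another gene symbol (chr2:26472036-26486507) overlaps the gene and is not part of these values. At the upstream peak all 4 knockout libraries were below both WT libraries (limma adjusted p = 0.718 for Trdn-as KO and 0.265 for Mettl3 KO against WT). At Sox18, which encodes a transcription factor of vascular development, the peak covered most of this short gene (chr2:181311712-181313859, minus strand) and had 440 and 429, 489 and 369, and 433 and 440, so that the genotypes overlapped.

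**Figure D1:**
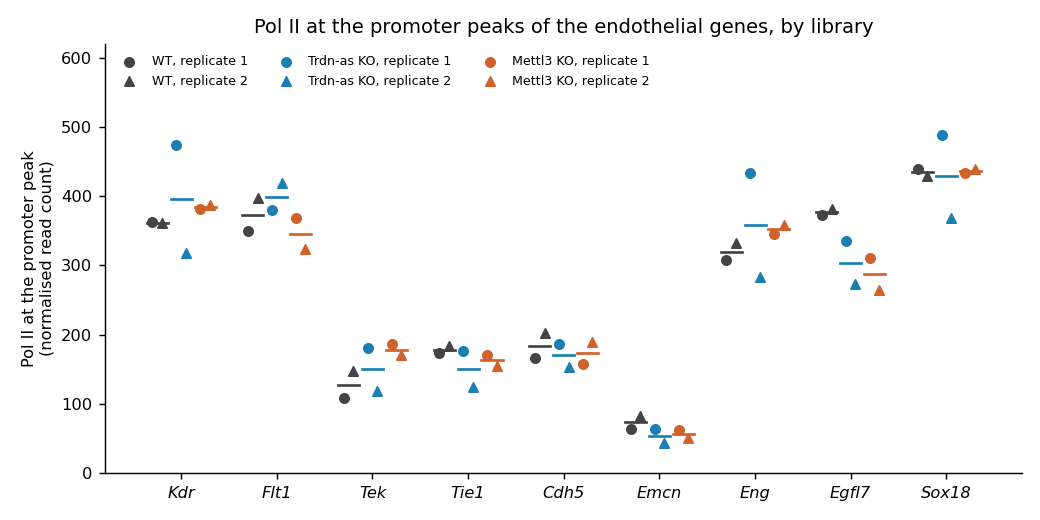
Normalised Pol II read count (y axis) at the promoter peak of each of the 9 members (x axis) in each library, with horizontal lines at the mean of the 2 libraries of a genotype. Emcn is the lowest member in all libraries, the 2 Trdn-as KO libraries are often farther apart than those of WT or Mettl3 KO, as at Kdr with 474 and 318, and at Egfl7 the WT libraries (373 and 381) lie above the other 4.

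Since a wide peak collects more reads than a narrow one, members were ordered by Pol II reads per kilobase of peak, a level rather than a difference. Sox18 came first with 201.7 ± 17.84 per kilobase (SD, n = 6 libraries of all genotypes), followed by Flt1 (186.5 ± 17.03), Tie1 (164 ± 21.56), Cdh5 (158.8 ± 17.88) and Kdr (151.5 ± 20.63). Eng (142.8 ± 21.45), Egfl7 (135.6 ± 20.72), Emcn (117.1 ± 25.89) and Tek (113.1 ± 24.59) made up the lower end of the order. Each member overlapped its neighbour in this order, so that no step of it exceeded the spread between libraries. The position of Emcn is set by a peak of only 518 bases, and its count is the lowest of the 9.

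Signal was set against the IgG background, with each antibody expressed relative to its uniquely mapped reads and all libraries summed. Each promoter peak was chosen for the highest mean Pol II in these same libraries. A high Pol II ratio was favoured by that choice and checks no label. Pol II exceeded IgG at every member promoter, with a median of 12.65-fold over the 9 members and a range from 8.264-fold at Tek to 30.05-fold at Sox18. The 95% exact binomial intervals, which cover counting error only because amplified reads are not independent molecules, ran from 6.03 to 11.62 at Tek and from 21.22 to 44.06 at Sox18. Flt1 reached 22.78-fold (16.39 to 32.64). The median over the strongest annotated peak of each of 13869 genes with IgG reads was 10.43, with quartiles of 5.583 and 14.64. These ratios depend on the library size used. With the reads in all union peaks in place of mapped reads the member median was 1.823 for Pol II and 0.4619 for CTCF. By genotype and with mapped reads, the member median for Pol II was 14.61 in WT, 17.09 in Trdn-as KO and 16.21 in Mettl3 KO. With mapped reads and all genotypes summed, CTCF was also above IgG at every member promoter, with a median of 3.198 and a range from 2.27 at Egfl7 to 6.228 at Sox18, compared with 4.938 (quartiles 3.804 and 7.373) at the strongest Pol II peak of all genes. In tissue that mixes cell types, a change in the number of endothelial cells and a change in signal per cell cannot be told apart in any of these values.

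**Figure D2:**
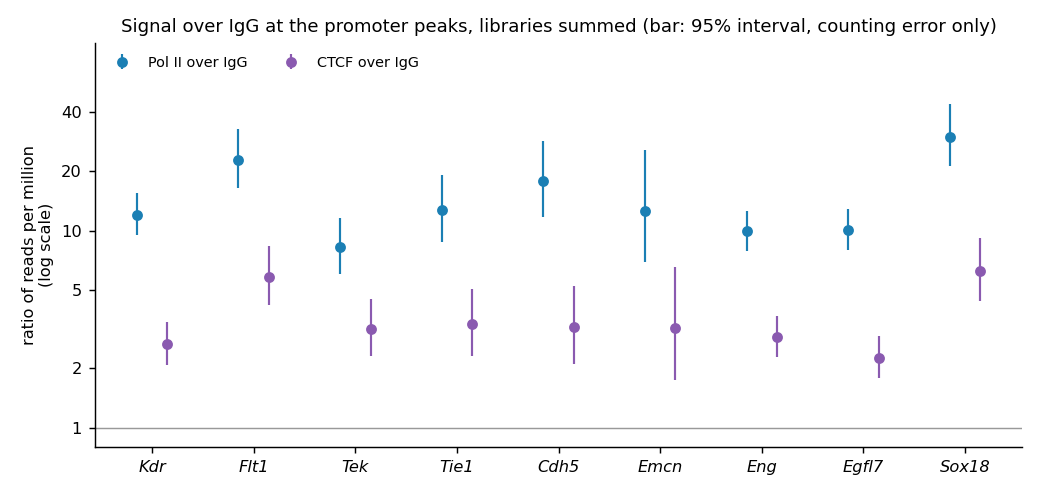
Ratio of Pol II (blue) and CTCF (purple) to IgG in reads relative to mapped reads at the promoter peak of each member, log scale, libraries of all genotypes summed, with 95% exact binomial intervals for counting error. All intervals lie above 1, Sox18 is highest for both antibodies (30.05 and 6.228), and the Pol II ratio is above the CTCF ratio at each member. The peaks were chosen for their Pol II in these libraries, which favours a high Pol II ratio.

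Beyond the promoters, most member peaks were weak. Kdr had an intragenic peak 44724 bases from its start, near the far end of the gene (chr5:76093981-76094807), with Pol II counts of 154 and 156 (WT), 150 and 94 (Trdn-as KO) and 163 and 176 (Mettl3 KO). In Tek a peak 7058 bases from the start had 86 and 96, 112 and 96, and 81 and 82. Mettl3 KO was above WT at the first of these and below it at the second, by small margins. Cdh5 had a peak 2266 bases from its start with 103 and 94, 80 and 59, and 61 and 61. There all 4 knockout libraries were below WT (limma adjusted p = 0.697 for Trdn-as KO and 0.215 for Mettl3 KO against WT). Sox18 had 2 further peaks of this kind, 1 at 2636 bases past its start (chr2:181310010-181311585) with 163 and 190, 229 and 222, and 155 and 157, and 1 at 2147 bases upstream with 45 and 69, 76 and 37, and 46 and 27. At the first of these the Trdn-as KO libraries were the 2 highest. The strongest CTCF signal of all members was in Flt1, 141524 bases from the start, a peak named after its values were seen, where CTCF was 131 and 139 (WT), 137 and 125 (Trdn-as KO) and 122 and 121 (Mettl3 KO), against Pol II counts of 41 and 55, 30 and 41, and 29 and 24.

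**Figure D3:**
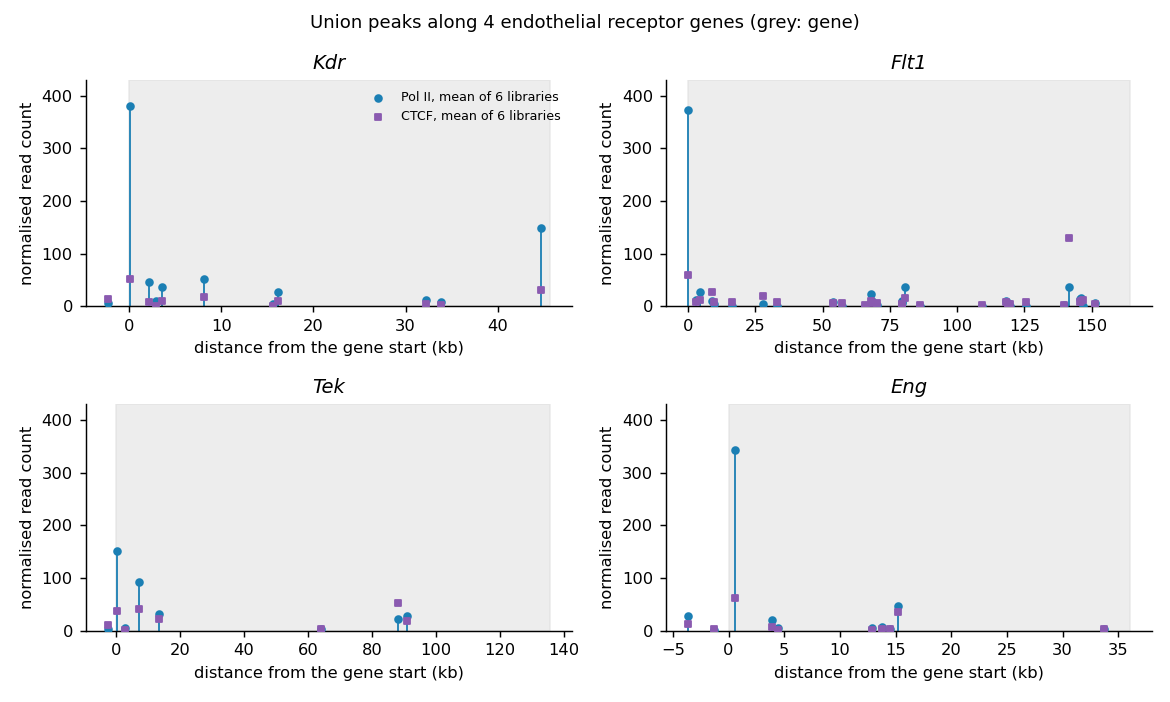
Mean normalised read count (y axis) of Pol II (blue circles) and CTCF (purple squares) over 6 libraries each at every union peak of Kdr, Flt1, Tek and Eng, by distance from the gene start in kilobases (x axis), with the gene shaded in grey. Pol II is concentrated at the start of each gene, with a second peak at the far end of Kdr, and the CTCF peak of Flt1 at 141524 bases stands above its Pol II.

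The comparison of Mettl3 KO with WT asks what follows at these genes when the methyltransferase is lost from a neighbouring cell type, the cardiomyocyte. Pol II was summed over all annotated peaks of a gene and tested with limma on log2(value + 1) over 12442 genes. Egfl7 was the only one of the 9 members called, with a lower sum in Mettl3 KO. Its Pol II sum was 707 and 701 (WT), 592 and 528 (Trdn-as KO) and 534 and 468 (Mettl3 KO), a log2 difference of -0.49 (SE 0.16) between Mettl3 KO and WT, with a Benjamini-Hochberg adjusted p of 0.0497 by limma. A wide peak over the body of Egfl7 that carries another gene symbol is not part of this sum. The call was lost when any 1 of the 4 libraries of the comparison was left out, with log2 differences from -0.59 to -0.40. Such fits called far fewer of all genes than the full fit. It was 1 of 9 members, against 3.98% of all genes called in either direction, and 2 of 9 members passed an unadjusted p under 0.05, against 25% of all genes.

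The other members did not pass the adjusted threshold. Tek was 118 and 148 in WT against 197 and 183 in Mettl3 KO, a log2 difference of 0.52 (SE 0.22, adjusted p = 0.129, limma), which was 0.23 when the peaks without a gene inside Tek were added to the sum. Emcn was 79 and 106 against 70 and 58, a log2 difference of -0.52 (SE 0.27, adjusted p = 0.215, limma). The remaining differences were -0.32 (SE 0.18) for Cdh5, -0.25 (SE 0.17) for Flt1, -0.15 (SE 0.21) for Tie1, -0.15 (SE 0.15) for Sox18, 0.03 (SE 0.17) for Kdr and 0.05 (SE 0.17) for Eng, with limma adjusted p-values from 0.240 to 0.899. Both Mettl3 KO libraries were below both WT libraries for 6 members (Cdh5, Flt1, Tie1, Emcn, Egfl7 and Sox18) and above them for 1 (Tek), whereas 8.39% of all genes were lower in both and 64.3% higher in both.

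The scale of these sums matters for their direction. With the deposited size factors the median log2 difference of all genes between Mettl3 KO and WT was 0.25, and that of the members was -0.15. When the Pol II libraries were instead scaled to each other by the median of ratios, the all-gene median was 0.01 and the member median -0.39, and 5 members were called lower (Cdh5, Egfl7, Emcn, Flt1 and Sox18), against 8.55% of all genes called in either direction. Kdr and Eng turned to -0.21 and -0.19. The calls over all genes moved from 414 higher and 81 lower to 358 higher and 706 lower with this scaling. With mapped reads as the library size no member was called by limma, and none had an unadjusted p under 0.05, at a member median of -0.29 and an all-gene median of 0.11.

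**Figure D4:**
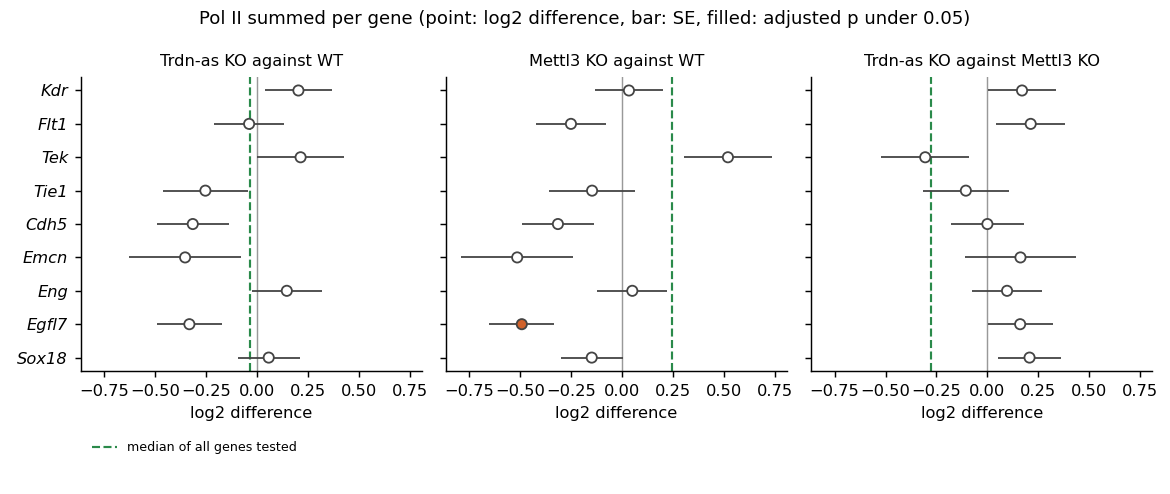
Log2 difference (x axis) in Pol II summed per gene for the 9 members in the 3 comparisons, with bars of 1 SE from limma, filled points for an adjusted p under 0.05 and a dashed line at the median of all genes tested. In Mettl3 KO against WT, 8 of the 9 points lie to the left of the all-gene median of 0.25, and Egfl7 is the only filled point.

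At single peaks, 53 of the 85 members passed the minimum value for Pol II and 32 did not, and since a peak can pass through the genotype in which it is high, counts over those that passed are descriptions. A single member peak was lower in Mettl3 KO than in WT by limma, against 1.19% of all peaks called, and 13 of 53 had an unadjusted p under 0.05, against 15.5% of all peaks. The called peak lay 3110 bases inside Flt1 (chr5:147659536-147659886), where Pol II was 33 and 14 (WT), 11 and 6 (Trdn-as KO) and 2 and 2 (Mettl3 KO), a log2 difference of -2.91 (SE 0.78, limma adjusted p = 0.041). These are small counts, with 39 reads in WT and 3 in Mettl3 KO over the whole peak. Pol II was above IgG by the 95% interval only in WT. The call was lost without any 1 of the 4 libraries, with differences from -3.50 to -2.32. Such fits called far fewer peaks of any kind, so that loss is not particular to this peak. The Egfl7 peak 3860 bases upstream (chr2:26465405-26466927) had 268 and 250 (WT), 215 and 206 (Trdn-as KO) and 171 and 157 (Mettl3 KO), with the 3 genotypes in that order and no overlap, and a limma adjusted p of 0.0798 for Mettl3 KO against WT. At the 9 promoter peaks none was called and 2 had an unadjusted p under 0.05 by limma, against 1.76% and 25.5% of all genes at their strongest peak. The member median was -0.09, and the median of the strongest peak of all genes was 0.26.

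No member was called between Trdn-as KO and WT by limma. Of the 9 gene sums, 0 passed and 1 had an unadjusted p under 0.05, against 0.354% and 5.61% of all genes, respectively. The log2 differences ran from -0.35 to 0.21, with a median of -0.04 for the members and -0.03 for all genes. The Trdn-as KO libraries were widely spaced, for example 616 and 438 for Kdr against 443 and 459 in WT, and 520 and 338 for Eng against 354 and 405. Without Trdn-as KO replicate 2, the library with few reads in peaks, Eng and Kdr were called higher, with 142 of all genes higher and 30 lower. Without Trdn-as KO replicate 1, Cdh5, Egfl7 and Tie1 were called lower, with 2561 of all genes lower and 71 higher, or 21.2% in all against 1.38% without replicate 2. Each of these calls depends on which single library stands for the genotype. Of the 53 peaks, 0 passed by limma and 4 had an unadjusted p under 0.05, against 0.304% and 7.7% of all peaks.

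The comparisons above share the WT libraries, and that of the 2 knockouts reuses the libraries of both. Between the knockouts, limma called 0 of the 9 gene sums and none had an unadjusted p under 0.05, against 6.09% and 30.6% of all genes. The log2 difference of Trdn-as KO minus Mettl3 KO ran from -0.31 to 0.21, with a member median of 0.16 and an all-gene median of -0.28. With the Pol II libraries scaled to each other by the median of ratios, the all-gene median was -0.01 and 5 members were called higher in Trdn-as KO (Egfl7, Eng, Flt1, Kdr and Sox18), against 6.98% of all genes in either direction. The calls over all genes moved from 64 higher and 694 lower to 571 higher and 297 lower. At peaks, 0 of 53 passed by limma and 8 had an unadjusted p under 0.05, against 1.5% and 17.9% of all peaks. Without Trdn-as KO replicate 2 the number of gene sums called was 3, all higher, against 4.09% of all genes. Without Trdn-as KO replicate 1 it was 2, 1 in each direction, against 63% of all genes.

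CTCF signal at the member promoters was lower in Mettl3 KO than in WT at each of the 9, although no single promoter passed the adjusted threshold. At Kdr it was 60 and 66 (WT), 48 and 46 (Trdn-as KO) and 46 and 45 (Mettl3 KO). At Eng it was 81 and 69, 66 and 58, and 54 and 50, and at Sox18 68 and 64, 53 and 59, and 44 and 51. In these 3 genes, and also at Flt1, Cdh5 and Emcn, all knockout libraries were below WT. At each of them the lowest library was from Mettl3 KO. The share of all genes with both knockouts below WT was not counted.

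At the other promoters Mettl3 KO was also below WT, while Trdn-as KO overlapped WT at Egfl7, Tek and Tie1. CTCF was 61 and 75 (WT), 58 and 58 (Trdn-as KO) and 55 and 47 (Mettl3 KO) at Flt1, and 48 and 52, 52 and 50, and 41 and 35 at Egfl7. At Tek it was 43 and 38, 41 and 34, and 33 and 33, and at Tie1 30 and 30, 36 and 20, and 25 and 23. At Cdh5 it was 23 and 27, 18 and 21, and 14 and 17, and at Emcn 13 and 12, 9 and 11, and 8 and 7. Both Mettl3 KO libraries were below both WT libraries at all 9, against 29.7% of all genes at their strongest Pol II peak. The log2 differences ran from -0.67 to -0.29, with a median of -0.46 against -0.06 over all genes (quartiles -0.17 and 0.06). By limma 0 of the 9 passed and 7 had an unadjusted p under 0.05, against 0.169% and 13.2% of all genes at their strongest Pol II peak. Trdn-as KO against WT, which shares the WT libraries, was also negative at 8 of the 9. Its median log2 difference was -0.23, against -0.02 over all genes. By limma 0 of the 9 passed there and 1 had an unadjusted p under 0.05, against 0.409% and 8.72% of all genes. Within single genotypes, the 95% interval of CTCF over IgG included 1 at Tek in Trdn-as KO (0.9076 to 2.801) and at Emcn in Trdn-as KO (0.7881 to 25.53) and Mettl3 KO (0.7482 to 11.72). The median of Mettl3 KO against WT stayed between -0.46 and -0.40 when libraries were scaled by mapped reads or by the median of ratios.

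Over all member peaks, 42 of 85 passed the minimum value for CTCF. In Mettl3 KO against WT, 1 was called lower by limma and 23 had an unadjusted p under 0.05, 22 of them lower, against 0.185% and 15.7% of all peaks. It lay inside Kdr, 8150 bases from the start (chr5:76130483-76131454), with CTCF counts of 26 and 25 (WT), 18 and 22 (Trdn-as KO) and 8 and 12 (Mettl3 KO), a log2 difference of -1.29 (SE 0.22, limma adjusted p = 0.0252). Its Pol II counts were 53 and 59, 60 and 51, and 34 and 50. In Trdn-as KO against WT, 0 peaks were called by limma and 3 had an unadjusted p under 0.05, against 0.587% and 10.2% of all peaks.

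In Trdn-as KO against Mettl3 KO, 2 member peaks were called higher by limma and 10 had an unadjusted p under 0.05, against 1.37% and 18.8% of all peaks. These were the same Kdr peak, with a log2 difference of 0.95 (SE 0.22, limma adjusted p = 0.0370), and the Sox18 peak 2636 bases past the start, with CTCF counts of 19 and 17 (WT), 24 and 20 (Trdn-as KO) and 13 and 10 (Mettl3 KO) and a difference of 0.88 (SE 0.21, limma adjusted p = 0.0462). The groups did not overlap at either. None of these calls held when 1 of the 4 libraries compared was left out. Such fits called almost no CTCF peak of any kind, so this loss is not particular to these peaks. The differences then ran from -1.56 to -1.03 for the Kdr peak in Mettl3 KO against WT. They ran from 0.69 to 1.22 for the same peak between the knockouts, and from 0.71 to 1.06 for the Sox18 peak. In Mettl3 KO, CTCF at both peaks was not above IgG by the 95% interval, with ratios of 1.146 (0.5452 to 2.777) in Kdr and 1.34 (0.6435 to 3.227) in Sox18.

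**Figure D5:**
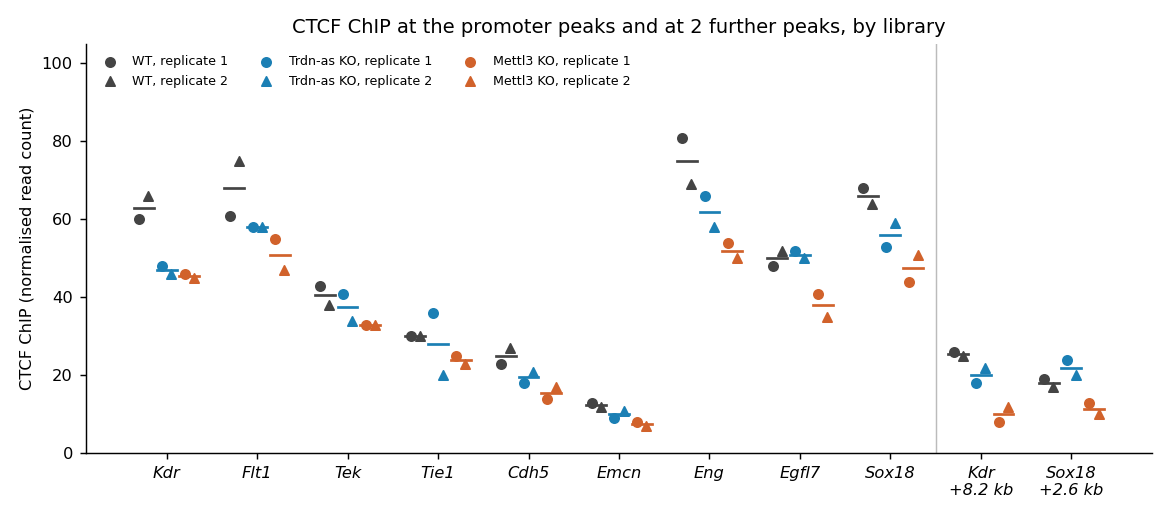
Normalised CTCF read count (y axis) at the promoter peak of each of the 9 members and, right of the grey line, at the 2 further peaks of Kdr and Sox18 that were called, in each library, with lines at the mean of each genotype. The Mettl3 KO libraries lie below the WT libraries at every position, whereas Trdn-as KO overlaps WT at some positions, as at Egfl7 with 52 and 50, and lies above it at the further Sox18 peak with 24 and 20.

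Of 44 further genes of endothelial signalling and identity, such as Notch ligands and receptors, VEGF and angiopoietin ligands and ETS factors, 41 had Pol II sums that passed the minimum. None was called in Trdn-as KO or Mettl3 KO against WT by limma, with 2 and 7 at an unadjusted p under 0.05, against 0.354% and 3.98% of all genes called and 5.61% and 25% at an unadjusted p under 0.05. The median log2 differences were -0.08 and -0.09, against -0.03 and 0.25 over all genes. Only Esam, which encodes an adhesion molecule of endothelial junctions, was called between the knockouts, with 912 and 929 (WT), 1133 and 1067 (Trdn-as KO) and 738 and 645 (Mettl3 KO) and a difference of 0.67 (SE 0.15, limma adjusted p = 9.45e-04). Esam was 1 of the 41 genes, against 6.09% of all genes called in this comparison. Of the 41, 6 had an unadjusted p under 0.05 by limma, against 30.6% of all genes. The Esam difference was 0.63 and 0.71 without either Trdn-as KO library. It was 0.77 and 0.57 without either Mettl3 KO library, where the call was lost. The number of all genes called differs strongly between these fits, so whether the call held is no check of it. With the median-of-ratios scaling 18 of the 41 were called lower in Mettl3 KO than in WT, against 706 lower and 358 higher of all 12442 genes. Under the same scaling 7 of 9 cardiomyocyte genes were also called lower.

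Markers of another cell type moved in the same comparison. Of 10 fibroblast genes, 7 were called higher in Mettl3 KO than in WT by limma, against 414 higher of all 12442 genes. Their median log2 difference was 0.88, and their summed Pol II was 1879 to 2043 in WT, 2009 to 2700 in Trdn-as KO and 3710 to 3770 in Mettl3 KO, with no marker at 0. With mapped reads as the library size 0 of these 10 genes were called, against 0.0161% of all genes, at a median of 0.74. With the median of ratios 8 were called higher, against 358 of all genes. With 1 library left out in turn, the difference ran from 1.25 to 1.59 at Col3a1 and from 0.63 to 0.78 at Tcf21. The Tcf21 call was lost in all of these fits and that of Pdgfra in some. Those of Col3a1, Col1a1 and Col1a2 held. The sum over the 9 endothelial members was 3405 to 3635 in WT, 3052 to 3793 in Trdn-as KO and 3044 to 3216 in Mettl3 KO, with no overlap between WT and Mettl3 KO. The part of a changed cell composition in the endothelial values was not tested.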

How the data were processed

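Chromatin from mouse heart ventricles was immunoprecipitated and sequenced. According to the submitters' processing notes and the study's methods, the authors trimmed reads (Trimmomatic 0.39), aligned them to mm39 (STAR 2.7.11b), removed duplicates (Picard 3.1.1), merged MACS peaks of all samples, counted reads (featureCounts) and divided by DESeq2 1.36.0 size factors. The deposited values are these normalised counts rounded to whole numbers, treated here as a score. A single read was worth 0.9446 to 2.036 in the Pol II, 0.284 to 0.4576 in the CTCF and 2.546 to 6.566 in the IgG libraries. The table gives a gene to a peak within 5000 bases of its start.

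Scores were tested as log2(value + 1) with limma 3.58.1 (R 4.3.3, lmFit and eBayes with trend, all 3 genotypes in 1 fit), for features that reached 10 in 2 or more of 6 libraries, with Benjamini-Hochberg adjustment at 0.05 over all features. Alternatives were other library sizes and pseudocounts, no filter, no variance trend, only the compared genotypes, a replicate block, IgG subtraction and leaving out each library. On simulated data for Mettl3 KO against WT, 83.5% of 200 Pol II peaks, 98.5% of 200 gene sums and 100% of 200 CTCF peaks changed by 2 on the log2 scale were recovered, over 54081, 12487 and 60639 features. Recovery of smaller changes, such as the -0.52 to 0.52 of the member gene sums in that comparison, was not tested. Named items were each member's promoter peak with the highest mean Pol II value, other member peaks called or with a mean of at least 50 (Pol II) or 200 (CTCF), and called genes of the endothelial list. Members and lists were chosen with earlier results of these data known. IgG ratios used the study's mapped read totals, with 95% exact intervals.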

Additional observations from a re-analysis of the deposited data

Results flagged for a closer look

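A Pol II signal above IgG was present at 4 peaks that the comparisons above do not use. The largest in extent covers most of Egfl7 (chr2:26472036-26486507) but carries the gene symbol Gm20532, and its Pol II was 12.58-fold over IgG, with counts of 2213 and 2327 (WT), 2166 and 1686 (Trdn-as KO) and 1582 and 1465 (Mettl3 KO), a log2 difference of -0.58 (SE 0.12, limma adjusted p = 0.0028) between Mettl3 KO and WT. That call was lost with no filter, no variance trend or IgG subtracted, where limma called no union peak lower in this comparison. It was also lost without Mettl3 KO replicate 2, a fit that calls far fewer peaks of any kind. A peak inside Eng (chr2:32543798-32546490) that carries another gene was 6.695-fold over IgG. The other 2 lie between Tex2 and Milr1 on chromosome 11, in a stretch with 28 peaks that carry no gene and were not assigned to a member. The first of them (chr11:106565357-106566700) was 7.805-fold over IgG, with Pol II counts of 172 and 187 (WT), 190 and 134 (Trdn-as KO) and 202 and 232 (Mettl3 KO). The second (chr11:106605763-106606533) was 28.46-fold over IgG, with 178 and 199, 201 and 200, and 137 and 173. No cause was tested for any of these signals.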

How the results depend on the processing

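Counts of members called depended on the library scaling. At Pol II peaks in Mettl3 KO against WT, 1 call became 5 with the median of ratios, 4 with only the compared genotypes (4.14% and 9.23% of all peaks), and 0 with mapped reads, no filter, no variance trend or IgG subtracted. For gene sums in the same comparison, 1 call became 5 with the median of ratios, 4 with only the compared genotypes (8.55% and 44.7% of all genes), and 0 with mapped reads, no filter, no variance trend, IgG subtracted or the replicate block. For Trdn-as KO against WT, 0 gene sums became 1 with the median of ratios (2.16% of all genes). For Trdn-as KO against Mettl3 KO, 0 gene sums became 5 and 0 Pol II peaks became 2 with the median of ratios (6.98% of all genes and 2.8% of all peaks), and the peaks became 1 with a pseudocount of 5 and 1 with the replicate block. For CTCF, the count in Trdn-as KO against WT went from 0 to 4 with IgG subtracted, that in Mettl3 KO against WT from 1 to 12 with IgG subtracted and to 0 with no filter, no variance trend, only the compared genotypes or the replicate block, and that between the knockouts from 2 to 9 with IgG subtracted and to 0 with mapped reads, no filter, no variance trend, only the compared genotypes or the replicate block. With IgG subtracted, 4.4%, 3.51% and 6.63% of all CTCF peaks were called in these 3 comparisons. The cause of these moves was not tested.

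With each library left out in turn, the calls over all features rose or fell strongly, depending on the library. The number of members called in these fits is therefore not read as a result about the members. Where 1 library was left, it was assumed to vary like the other groups. The median Pol II ratio over IgG of 12.65 ranged from 11.71 to 14.18 and became 1.823 with reads in all union peaks as library size. The Kdr gene sum in Mettl3 KO against WT turned from 0.03 to -0.209 with the median of ratios and -0.159 with IgG subtracted, and that of Eng from 0.05 to -0.192 and -0.155. Of 165 other values for 13 single results, 111 kept their direction and side of the threshold, 43 were no longer called, 7 became called and 4 turned. Adding the unannotated peaks inside each gene to its sum, chosen after seeing the data, left the counts as they were and moved the Tek sum in Mettl3 KO against WT from 0.52 to 0.23. The shared replicate numbers did not pair the libraries: deviations of same-numbered libraries correlated between -0.00957 and -0.00023 for Pol II and between -0.238 and 0.0059 for CTCF, so that the replicate block has no design behind it. Each genotype has 1 IgG library, and its few reads limit every ratio over IgG.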

Other observations

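Other cell types were read from the same Pol II sums. Of 9 cardiomyocyte genes, none was called in either knockout against WT by limma, with 3 (Trdn-as KO) and 2 (Mettl3 KO) at an unadjusted p under 0.05, against 5.61% and 25% of all genes. With the median-of-ratios scaling 7 of the 9 were called lower in Mettl3 KO than in WT, against 8.55% of all genes in either direction. Between the knockouts only Myh6, the adult alpha myosin heavy chain, was called, against 6.09% of all genes. It was lower in Trdn-as KO when compared with Mettl3 KO, at 9901 and 7625 against 11283 and 11566, with 10654 and 11527 in WT. This call was lost without Trdn-as KO replicate 2 (log2 difference -0.21) and without either Mettl3 KO library (-0.41 and -0.38). Of 10 mural genes, which mark pericytes and smooth muscle, none was called against WT by limma, against 0.354% (Trdn-as KO) and 3.98% (Mettl3 KO) of all genes. At an unadjusted p under 0.05 there were 2 and 1, against 5.61% and 25% of all genes. Tagln and Pdgfrb were called lower in Trdn-as KO when compared with Mettl3 KO, against 6.09% of all genes called. Their log2 differences of -0.97 and -0.53 became -0.33 and -0.36 without Trdn-as KO replicate 2, where neither was called. Neither was called without either Mettl3 KO library. Of 8 leukocyte genes, Spi1, a myeloid transcription factor, was called higher in Mettl3 KO than in WT, at 203 and 188 against 98 and 140. It was also the only 1 at an unadjusted p under 0.05, against 3.98% of all genes called and 25% at that p. The call was lost without any 1 of these 4 libraries, with log2 differences from 0.48 to 0.99. None was called by limma in the other 2 comparisons. There 1 had an unadjusted p under 0.05 in each, against 5.61% (Trdn-as KO against WT) and 30.6% (between the knockouts) of all genes. Of 3 lymphatic endothelial genes none was called by limma. At an unadjusted p under 0.05 there were 0, 1 and 1 in Trdn-as KO against WT, Mettl3 KO against WT and Trdn-as KO against Mettl3 KO. The shares of all genes at that p were 5.61%, 25% and 30.6%.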
